A study of Mus musculus with 9 samples.

Results

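Transcript levels of Pre-CD8 DCs, the bone marrow precursors of the classical dendritic cells (DCs) called cDC1, were compared with those of Zbtb46- CDPs, common DC progenitors in which a reporter of the gene Zbtb46 was off. The comparison took the 3 arrays of each population, 6 of the 9 arrays of the series, and 19938 genes. The cells came from bone marrow of the pelvis, tibia and femurs of mice carrying 1 Zbtb46-GFP reporter allele, and they were isolated by fluorescence-activated sorting. The remaining 3 arrays were Zbtb46+ CDPs, progenitors with the reporter on, from the same genotype. All 3 populations share the heterozygous reporter, and no wild type, treatment or age was given. The surface markers of the sort were not given either, so genes that served as gate markers cannot be told apart from the rest, and for Zbtb46 itself the CDP groups were defined by its reporter. Nothing states whether arrays of a population came from separate mice, pools or days. Each p therefore measures the spread between these arrays, which may be technical.

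The common DC progenitor gives rise to plasmacytoid DCs and to both branches of classical DCs. The cDC1 branch excels at presenting antigen taken up from dead cells to CD8 T cells, and its formation depends on the transcription factors Irf8, Batf3, Id2 and Nfil3. Zbtb46 is a zinc finger factor whose expression marks commitment to classical DCs, so the comparison covers the stretch from a progenitor without that mark to the immediate precursor of cDC1.

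Signals are given as log2 of the deposited intensity, and a difference is the mean of the Pre-CD8 DCs minus that of the Zbtb46- CDPs on that scale. A gene was called higher or lower at an adjusted p under 0.05 (limma, Benjamini-Hochberg over all 19938 genes). The median of the whole table was 6.82, and signals near or below it were not shown to exceed background, so a rise from or a fall to such a signal is a lower bound for the change in transcript. The words at least mark this limit of the signal and not the spread between arrays or the fits without an array. The bound holds only where the signal at the other end exceeds background. In sorted cells measured in bulk, fewer cells of a type and less RNA per cell cannot be told apart. The median linear intensity of an array lay between 110.2 and 118.0; precision is limited by having 3 arrays a population.

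Replicate 1 of the Zbtb46- CDPs stood apart from its group, and results were recomputed without it. Its signal of Xist, the RNA of the inactive X chromosome, was 5.59, against 12.29 and 12.14 in the other Zbtb46- CDPs, and the Y-linked gene Eif2s3y was at 6.92 against 3.66 and 3.63. Ngp, a neutrophil granule protein, was at 10.48 in that array against 5.70 and 6.84, and its signals in Pre-CD8 DCs were 8.30, 5.78 and 8.54. Replicate 1 of the Zbtb46+ CDPs shared the low Xist and the high Ngp signal, with Xist at 5.30 and Ngp at 12.36. The Pre-CD8 DC arrays all had high Xist signals, from 11.85 to 11.97. These 3 genes were picked after their values were seen.

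Pre-CD8 DCs had 1282 genes higher (6.43% of the 19938) and 1841 lower (9.23%), together 3123 or 15.7%. The counts of called members in the gene lists below are to be read against these shares. The arrays of the 2 populations did not overlap for 6717 genes, 33.7% of those tested. A difference of at least 1 was reached by 423 of the higher genes (2.12% of all) and 419 of the lower (2.1%), one of at least 2 by 133 (0.667%) and 82 (0.411%), and one of at least 3 by 41 (0.206%) and 23 (0.115%). Without replicate 1 of the Zbtb46- CDPs, 1195 genes (5.99%) were higher and 1321 (6.63%) lower, 12.6% in all. Of the 3123 genes called with all arrays, 2415 (77.3%) were also called without it, and 0 changed direction, as the plot of the differences with and without that array shows.

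**Figure D1:**
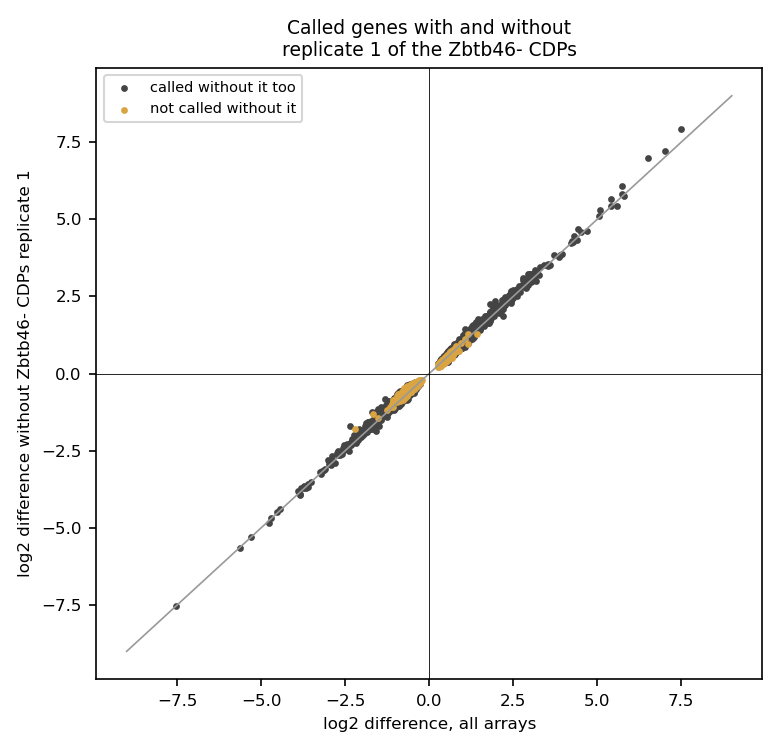
Log2 difference of each of the 3123 called genes with all arrays (horizontal axis) and without replicate 1 of the Zbtb46- CDPs (vertical axis), with the line of equality. Dark points mark the 2415 genes called both ways, orange points those not called without that array, which lie mostly at small differences.

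The 15 largest rises by the rule for named genes were those of H2-Aa, Cd74, Plbd1, Slamf7, H2-Ab1, Ifi205, Tlr3, H2-Eb1, Samd9l, Id2, Serpinb10, Cd226, Slc46a3, Anpep and Phf11a, with differences from 7.50 down to 4.41. Plbd1, a phospholipase B-like protein of the lysosome, had signals of 7.74, 6.10 and 6.53 in Zbtb46- CDPs and 13.34, 13.22 and 13.31 in Pre-CD8 DCs. Its highest Zbtb46- CDP array was replicate 1, and the rise of at least 6.50 (SE 0.34) was 6.98 without it. Slamf7, a surface receptor of the signalling lymphocyte activation family, went from 5.42, 5.47 and 5.57 to 11.26, 11.30 and 11.26. All 3 progenitor arrays lay below the table median and all 3 Pre-CD8 DC arrays far above it, a rise of at least 5.79 (SE 0.11, adjusted p = 1.17e-08). Cd226, an activating adhesion receptor best known from lymphocytes, rose by at least 4.68, and Anpep, the surface peptidase CD13, by at least 4.43. Ifi205 and Phf11a belong to families of close copies, so their probes may also read their relatives.

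Among the 15 largest falls, Mpo, the peroxidase of neutrophil primary granules, was at 13.62, 13.66 and 13.59 in Zbtb46- CDPs and 6.43, 6.02 and 5.79 in Pre-CD8 DCs, from far above the table median in every CDP array to below it in every Pre-CD8 DC array. The fall was at least 7.54 (SE 0.28, adjusted p = 2.94e-07), 187-fold as measured, and 7.54 without replicate 1. F13a1, the A chain of clotting factor XIII and a gene of monocyte progenitors, fell from 11.79, 12.07 and 11.99 to 7.21, 6.97 and 7.38, by at least 4.76. Cd93, a surface glycoprotein of early progenitors, fell by at least 4.69, and Igfbp4, an insulin-like growth factor binding protein, by at least 3.90. Gria3, a glutamate receptor subunit, had a difference of -3.83. Cd69, an early activation antigen, fell by at least 4.43, and Lbp, which binds bacterial lipopolysaccharide, had a difference of -3.73, also a lower bound. For each of the 30 genes of the largest rises and falls the arrays of the populations did not overlap, which was part of how they were chosen, and all 30 were also called without replicate 1 of the Zbtb46- CDPs.

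**Figure D2:**
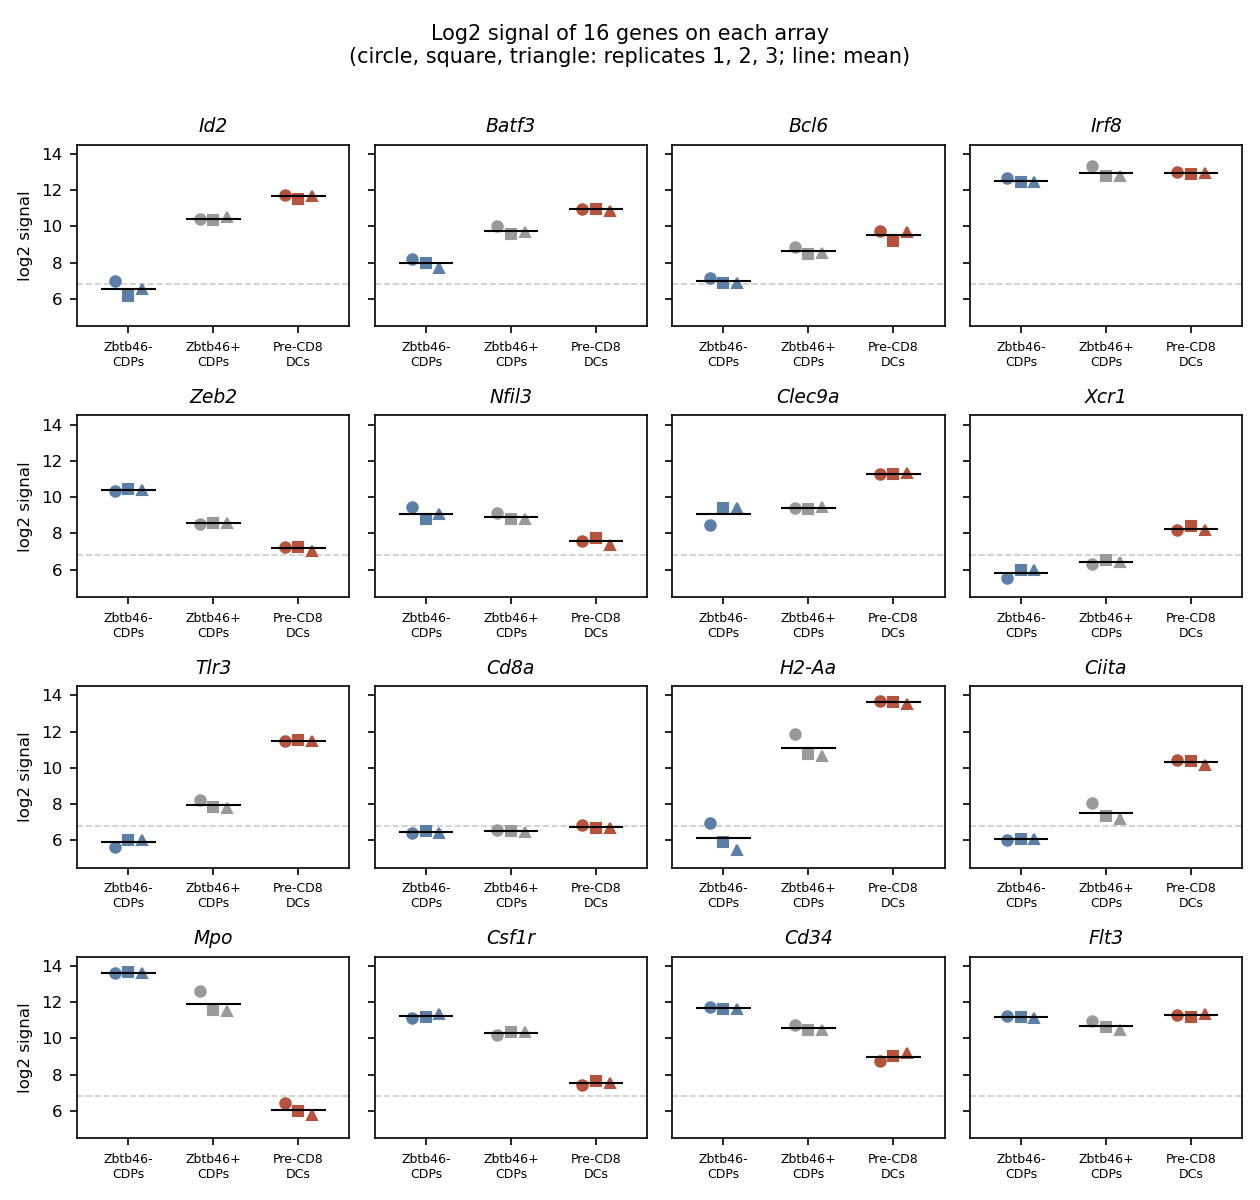
Log2 signal of 16 genes on each array of the 3 populations; marker shapes give replicates 1 to 3, short lines the group means, and the dashed line the table median of 6.82. Id2, Tlr3, H2-Aa and Ciita climb from near the dashed line, Mpo, Csf1r and Zeb2 descend towards or below it, and Irf8, Flt3 and Cd8a differ by less than 0.5 between the Zbtb46- CDPs and the Pre-CD8 DCs.

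Markers of cDC1 were higher in the arrays labelled Pre-CD8 DCs. Of 26 measured marker genes, 23 were higher and 0 lower, against 6.43% and 9.23% of all genes, and the median difference was 1.74 against 0.01 over all genes. Without replicate 1 of the Zbtb46- CDPs, 20 of the 26 were higher and the median was 1.79. The markers differed widely in the size of the difference, for example 0.29 for the dim Cd8a and 5.73 for Ifi205.

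Tlr3, the endosomal receptor for double-stranded RNA, had signals of 5.65, 6.04 and 6.04 in Zbtb46- CDPs, 8.21, 7.85 and 7.79 in Zbtb46+ CDPs and 11.47, 11.51 and 11.49 in Pre-CD8 DCs. The 3 populations did not overlap, and the Pre-CD8 DC arrays spread over less than 0.1; the rise was at least 5.58 (SE 0.14, adjusted p = 4.61e-08). Clec9a, the receptor for actin filaments of dead cells, was at 8.46, 9.42 and 9.41 in Zbtb46- CDPs, 9.39, 9.37 and 9.48 in Zbtb46+ CDPs and 11.28, 11.25 and 11.35 in Pre-CD8 DCs. Replicate 1 was the low array of the Zbtb46- CDPs, the other progenitor arrays of both kinds lay close together, and the difference of 2.19 (SE 0.22) became 1.87 without replicate 1. Xcr1, the chemokine receptor that defines mature cDC1, went from 5.56, 5.99 and 5.99 to 8.18, 8.43 and 8.18, a rise of at least 2.42. Naaa, a lysosomal amidase, went from 8.57, 7.99 and 8.15 to 12.61, 12.39 and 12.59 and rose by 4.29. Rab7b, a small GTPase of the late endosome, rose by 3.21, the integrin chain gene Itgax (CD11c) by 1.92 and Cd24a, a glycoprotein already bright in the progenitors, by 0.95.

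Cd8a, which encodes the CD8 alpha chain, was at 6.40, 6.50 and 6.42 in Zbtb46- CDPs and 6.83, 6.69 and 6.67 in Pre-CD8 DCs. The arrays did not overlap, but all but 1 lay below the table median, and the difference of 0.29 (adjusted p = 0.0229) lost its call without replicate 1 or 3 of the Zbtb46- CDPs or replicate 1 or 2 of the Pre-CD8 DCs (adjusted p up to 0.102). Itgae, which encodes the integrin chain CD103, had a difference of 0.27 at a mean signal of 5.83 ± 0.17 (SD, n = 3) in Pre-CD8 DCs and was not called (adjusted p = 0.119).

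Markers of other cell types the gates could hold moved in part. Csf1r, the receptor of macrophage colony-stimulating factor that is used to identify CDPs, was at 11.14, 11.19 and 11.33 in Zbtb46- CDPs, 10.19, 10.36 and 10.37 in Zbtb46+ CDPs and 7.46, 7.68 and 7.54 in Pre-CD8 DCs. It fell by 3.66 (SE 0.09, adjusted p = 4.61e-08), the groups lying far apart. Of 21 measured T, NK and innate lymphoid genes 2 were higher (9.52%) and 1 lower (4.76%), against 6.43% and 9.23% over all genes; of 19 erythroid, megakaryocyte, mast cell and basophil genes 1 was higher (5.26%) and 2 lower (10.5%), both near those shares. Of 19 early lymphoid and B cell genes 1 was higher (5.26%) and 4 lower (21.1%), and without any 1 array each of these counts moved by at most 1. In the T and NK list the NK receptor gene Klrd1 rose by at least 1.23 and Cd5, a surface protein of T cells, by 0.77, while Nkg7, a granule protein that is also in the primary granule list, had a difference of -2.21, also a lower bound. The call of Klrd1 was lost without replicate 2 or 3 of either compared population (adjusted p up to 0.069), and that of Nkg7 without replicate 1 of the Zbtb46- CDPs or replicate 3 of the Pre-CD8 DCs (up to 0.0663). In the B cell list the B cell receptor component gene Cd79b fell by 0.80, from 9.14, 8.78 and 8.94 to 8.23, 8.11 and 8.12. Blnk, its adaptor, fell by 1.03, between mean signals near or below the table median. Il7r, the interleukin 7 receptor of lymphoid progenitors, was at 6.42, 5.49 and 5.45 in Zbtb46- CDPs and 4.86, 4.82 and 5.07 in Pre-CD8 DCs. All these signals lay below the table median and were not shown to exceed background, so the size of its fall of 0.87 is uncertain. The fall was 0.55 without replicate 1 of the Zbtb46- CDPs, and the call was lost without any 1 of the Pre-CD8 DC arrays (adjusted p up to 0.0993).

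The neutrophil genes of the secondary granule and of the mature cell had 1 of 20 members higher (5%) and 2 lower (10%), near the 6.43% and 9.23% of all genes, and 2 higher without replicate 1 of the Zbtb46+ CDPs. Their mean log2 signal was 7.79, 6.64 and 6.83 in Zbtb46- CDPs and 6.96, 6.62 and 7.03 in Pre-CD8 DCs, highest in replicate 1 of the Zbtb46- CDPs. Both falls, of the collagenase gene Mmp8 (by 2.45) and the granulocyte colony-stimulating factor receptor gene Csf3r (by 2.25), remained without that array, at 2.35 and 2.22. Mmp8 ended at signals below the table median.

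Among transcription factors, the cDC1 regulators that changed most were an inhibitor and a repressor. Id2, which blocks E proteins, rose from near the table median to far above it, and Zeb2, a repressor known to hold Id2 down, fell to just above that median. Batf3 and Bcl6 rose, whereas Irf8, on which the lineage rests, was already bright in the Zbtb46- CDPs. Of the 34 measured factors of the DC list, 12 were higher (35.3%) and 4 lower (11.8%), against 6.43% and 9.23% of all genes. The list's median was 0.13, and its lower share lay near that of all genes. Without replicate 1 of the Zbtb46- CDPs 13 were higher and 3 lower. The count of lower factors ran from 2, without replicate 3 of the Pre-CD8 DCs, to 6, without replicate 1 of the Zbtb46+ CDPs.

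Id2 had signals of 6.97, 6.17 and 6.54 in Zbtb46- CDPs, 10.39, 10.37 and 10.50 in Zbtb46+ CDPs and 11.76, 11.53 and 11.66 in Pre-CD8 DCs. The 3 populations were separate, most of the distance already covered in the Zbtb46+ CDPs, and the rise over the whole span was at least 5.09 (SE 0.17, adjusted p = 1.99e-07; 5.30 without replicate 1). The family members Id1 and Id3, singled out after their values were seen, differed by -0.09 and 0.00 at dim signals and were not called. Of the E proteins that Id2 binds, Tcf4, a plasmacytoid DC factor, fell by 0.69 (adjusted p = 0.0111, 0.05003 without replicate 3 of the Pre-CD8 DCs), and Tcf3 differed by -0.12 (SE 0.24, adjusted p = 0.872), or 0.06 without replicate 1.

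Zeb2 was at 10.34, 10.46 and 10.38 in Zbtb46- CDPs, 8.50, 8.59 and 8.59 in Zbtb46+ CDPs and 7.28, 7.23 and 7.04 in Pre-CD8 DCs. Within each population its arrays agreed within 0.3, and the fall was at least 3.21 (SE 0.08, adjusted p = 5.25e-08), 9.26-fold as measured. Nfil3, a basic leucine zipper factor that represses Zeb2, was at 9.44, 8.80 and 9.05 in Zbtb46- CDPs, 9.12, 8.80 and 8.79 in Zbtb46+ CDPs and 7.59, 7.76 and 7.35 in Pre-CD8 DCs. Its CDP groups overlapped, while the Pre-CD8 DC arrays all lay below them, and it fell by 1.53 (SE 0.17, adjusted p = 0.000306; 1.36 without replicate 1).

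Batf3, the leucine zipper factor that sustains Irf8 in cDC1, was at 8.19, 7.97 and 7.73 in Zbtb46- CDPs and 10.97, 10.97 and 10.87 in Pre-CD8 DCs and rose by 2.97 (SE 0.14), 7.84-fold. Bcl6, a transcriptional repressor, rose by at least 2.58, from 7.14, 6.88 and 6.89 to 9.75, 9.20 and 9.70. Irf8 was at 12.69, 12.43 and 12.45 in Zbtb46- CDPs and 12.97, 12.89 and 12.97 in Pre-CD8 DCs. All 3 Pre-CD8 DC arrays were higher, by 0.42 in the mean (SE 0.15), but the difference was not called (adjusted p = 0.0968, and 0.0908 without replicate 1). With the replicate number as a block in the limma fit it was called (adjusted p = 0.0352), so the call of Irf8 depended on the model. Zfp366 (DC-SCRIPT), a zinc finger factor of classical DCs, rose by at least 2.09, Mycl, the Myc family member used by DCs, by 1.68, and Klf4, a factor also of monocytes and cDC2, by 1.16. Myc itself fell by 0.82, to 10.76, 10.62 and 10.68, and was lower still in the Zbtb46+ CDPs at 10.36, 9.72 and 9.65. Zbtb46 rose by 0.97 and Irf4, the factor of the cDC2 branch, by 1.05. Both rose from mean signals below the table median to means not far above it, 7.51 and 7.01. Spi1 (PU.1) was at 10.94, 9.67 and 9.92 in Zbtb46- CDPs and 11.32, 11.18 and 11.21 in Pre-CD8 DCs. Its difference of 1.06 (adjusted p = 0.0369) was 1.44 without replicate 1, the high array of the Zbtb46- CDPs, and the call was lost without any 1 of 7 arrays, the exceptions being replicate 1 of either CDP group. Neither Cebpa (-0.46, adjusted p = 0.128) nor Gfi1 (-0.09, adjusted p = 0.544), factors of the granulocyte and monocyte branch, was called.

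Stem and progenitor transcription factors fell where they changed: 10 of 29 were lower (34.5%) and 0 higher (median -0.27), against 9.23% and 6.43% of all genes. Erg, an Ets factor of stem cells, went from 9.11, 8.36 and 8.62 to 6.22, 6.29 and 6.01. It fell by 2.52, to signals below the table median. Replicate 1 was its highest Zbtb46- CDP array, and the fall was 2.32 without it. Myb fell from 10.88, 10.98 and 10.90 to 8.82, 8.79 and 8.76, by 2.13 (SE 0.07, adjusted p = 1.56e-07), Sox4 by 1.81 and Hoxa9, a homeobox factor of progenitors, by 1.15. The count of lower factors was 7 without replicate 1 of the Zbtb46- CDPs, 5 without replicate 3 of the Pre-CD8 DCs and 15 without replicate 1 of the Zbtb46+ CDPs, and the 4 factors just named were called under each of these omissions.

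Genes of MHC class II presentation load and show peptides to CD4 T cells, and 4 of them were among the 15 largest rises. The alpha chain of I-A and the invariant chain started near or below the table median in Zbtb46- CDPs, and all 4 ended above 12 in Pre-CD8 DCs. Of 14 measured members 10 were higher (71.4%), 0 lower and 4 not called, against 6.43% higher and 9.23% lower over all genes. The median was 1.67, and the counts were the same without replicate 1 of the Zbtb46- CDPs (median 1.78). H2-Aa, the alpha chain of I-A, was at 6.94, 5.90 and 5.49 in Zbtb46- CDPs, 11.87, 10.75 and 10.66 in Zbtb46+ CDPs and 13.66, 13.62 and 13.54 in Pre-CD8 DCs. The Pre-CD8 DC arrays agreed within about 0.1 and the progenitor arrays spread more widely, highest in replicate 1; the rise was at least 7.50 (SE 0.39, adjusted p = 2.66e-06), 181-fold as measured. Cd74, the invariant chain that guides class II through the cell, was at 6.48, 6.23 and 5.66 in Zbtb46- CDPs and 13.18, 13.16 and 13.12 in Pre-CD8 DCs, with a rise of at least 7.03 (SE 0.50). H2-Ab1, the beta chain of I-A, rose by 5.75 and H2-Eb1, the beta chain of I-E, by 5.41.

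Ciita, the coactivator that switches class II genes on, was at 6.01, 6.05 and 6.09 in Zbtb46- CDPs, 8.07, 7.33 and 7.20 in Zbtb46+ CDPs and 10.44, 10.35 and 10.17 in Pre-CD8 DCs. Its 3 progenitor arrays lay within 0.1 of each other below the table median, and it rose by at least 4.27 (SE 0.20, adjusted p = 1.30e-06). Of the DNA-binding partners of Ciita, picked after their values were seen, Rfx5 differed by 0.02 and Rfxank by 0.06, both with overlapping arrays. Rfxap differed by 0.56 (SE 0.18) without overlap, and none of the 3 was called (adjusted p = 0.961, 0.888 and 0.0707).

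Class II promoters are known for a short upstream module that ends in an inverted CCAAT box, and the promoter letters of the called class II genes were read for it. Promoter windows of 300 bases, 250 before and 50 after a transcript start, came from RefSeq on GRCm38.p6 for 27025 genes and were searched for CCAAT on both strands. Windows existed for 10 of the 14 list members, of which 9 (90%) held the letters, against 41.1% of all 27025 genes. Of the 7 called members with a window 6 did. The search counted either direction anywhere in the window, and a high share was not particular to class II. It was 90.5% for cholesterol and fatty acid synthesis, 73.5% for mitosis and 64.9% for replication. For ribosome biogenesis it was 40.4% and for lysosomal genes 36%. The 4 called genes with the largest rises among those with a match before the start are shown, up to 45 bases to each side, in transcript direction, with each match in capitals (ATTGG is CCAAT on the other strand). H2-Aa lies at chr17:34287824-34287916 on the minus strand, H2-Eb1 at chr17:34305763-34305857, H2-Ob at chr17:34238803-34238897 and H2-Oa at chr17:34092291-34092378, these 3 on the plus strand, and their first matches begin 48, 59, 57 and 43 bases before the start.
H2-Aa: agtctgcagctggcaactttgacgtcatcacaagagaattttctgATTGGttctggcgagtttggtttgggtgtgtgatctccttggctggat
H2-Eb1: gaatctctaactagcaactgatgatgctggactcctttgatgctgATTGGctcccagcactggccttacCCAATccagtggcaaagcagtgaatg
H2-Ob: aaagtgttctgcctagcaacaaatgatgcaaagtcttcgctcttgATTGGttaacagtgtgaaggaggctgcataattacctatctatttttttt
H2-Oa: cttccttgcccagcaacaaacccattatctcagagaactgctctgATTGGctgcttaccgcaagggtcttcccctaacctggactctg
All 4 carry the letters in the inverted direction close to the start. H2-Ob and H2-Oa, the chains of the class II modulator H2-O, were chosen by this match and not by the rule for named genes; they rose by 2.38 and 2.26. A match is a description of the letters and no evidence that a factor is bound.

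MHC class I peptide loading changed less but in the same direction for most called members. Of 16 measured genes 9 were higher (56.2%) and 2 lower (12.5%), against 6.43% and 9.23% of all genes, the lower share near that of all genes. The list's median was 0.41, and 8 were higher and 2 lower without replicate 1 of the Zbtb46- CDPs. The count of higher genes was 6 without replicate 2 of the Zbtb46- CDPs or without replicate 1 or 2 of the Pre-CD8 DCs, and 1 gene was lower without any 1 of these arrays or replicate 3 of the Zbtb46- CDPs. Tapbp (tapasin), which bridges class I to the peptide transporter, rose by 0.82 (SE 0.16). The immunoproteasome subunit gene Psmb9 went from 11.51, 11.38 and 11.41 to 12.23, 12.28 and 12.07 and rose by 0.76, and its partner Psmb8 rose by 0.61. Tap1, a chain of the peptide transporter, had a difference of 0.66 (adjusted p = 0.0126, 0.0536 without replicate 1 of the Pre-CD8 DCs). Ide, a cytosolic peptidase, fell by 0.98.

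Genes of cross-presentation, the display of engulfed antigen on class I, were split. Wdfy4, a large vesicle protein that cDC1 need for cross-presentation, was at 10.80, 10.77 and 10.65 in Zbtb46- CDPs and 12.61, 12.63 and 12.51 in Pre-CD8 DCs and rose by 1.84 (SE 0.11, adjusted p = 7.82e-06). Rab43, a GTPase of the same pathway, rose by 2.46, from 7.88, 7.47 and 7.44 to 10.04, 9.96 and 10.15. In the phagocyte oxidase the subunits diverged: the gene of the small membrane subunit, Cyba, rose by 1.08, whereas that of the catalytic subunit, Cybb, was at 9.81, 9.60 and 9.55 in Zbtb46- CDPs and 8.0, 8.08 and 8.34 in Pre-CD8 DCs. The Cybb arrays did not overlap, but its difference of -1.51 (adjusted p = 0.0257) lost its call when any 1 of the 6 arrays compared was left out (adjusted p up to 0.0905). Of the list's 13 measured genes 4 were higher (30.8%) and 3 lower (23.1%), against 6.43% and 9.23% of all genes. The lower count was 1 without replicate 1 or 3 of the Zbtb46- CDPs or replicate 1 or 3 of the Pre-CD8 DCs.

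Innate sensors moved in both directions within families. Of 22 Toll-like receptor and adaptor genes 10 were higher (45.5%) and 3 lower (13.6%), against 6.43% and 9.23% of all genes. Without replicate 1 of the Zbtb46- CDPs 9 were higher and 3 lower. Besides Tlr3, the risers were led by Tlr13, a receptor for bacterial ribosomal RNA, from 5.91, 5.55 and 5.67 to 8.03, 7.95 and 7.85 (at least 2.24), by Cd180, a Toll-like surface protein (1.75), and by Tlr12, a receptor for a protozoan protein (at least 1.63). The falls were in Tlr7, a receptor for single-stranded RNA (-1.42, from 6.91, 5.92 and 5.94 to 4.54, 5.09 and 4.86), Tlr8 (-0.80) and the lipopolysaccharide coreceptor gene Cd14 (-1.03). Tlr7 and Tlr8 fell between signals mostly below the table median, and a filter that dropped the dimmest 30% of genes removed both from the test, while Cd14 kept its call there.

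Of 27 genes of the interferon response 13 were higher (48.1%) and 0 lower, against 6.43% and 9.23% of all genes. The median was 0.41, and 12 were higher and 0 lower without replicate 1 of the Zbtb46- CDPs. Irf7, the master factor of interferon production, was at 7.74, 7.28 and 7.38 in Zbtb46- CDPs and 10.70, 10.66 and 10.61 in Pre-CD8 DCs and rose by 3.19 (SE 0.11, adjusted p = 2.11e-07). Usp18, a deconjugase that dampens interferon signalling, rose by 1.80, the antiviral GTPase gene Mx1 by at least 1.62 and Zbp1, a sensor of Z-form nucleic acid, by at least 1.42. Among the classic members not called were Ifit1 (-0.11) and Oas2 (0.10), named after their values were seen.

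The interferon-stimulated response element contains 2 GAAA steps, so windows were searched on both strands for GAAA followed, after any 2 bases, by another GAAA. It was found in 11 of the 19 list members with a window (57.9%) and in 4 of the 8 called ones, against 3.99% of all 27025 genes. The 4 called genes with a match are shown with 20 bases to each side, matches in capitals: Stat2 at chr10:128270256-128270305 on the plus strand, and on the minus strand Trim30a at chr7:104465200-104465249, Oas3 at chr5:120777705-120777754 and Rsad2 at chr12:26456543-26456592.
Stat2: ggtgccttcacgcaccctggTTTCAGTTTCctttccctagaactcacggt
Trim30a: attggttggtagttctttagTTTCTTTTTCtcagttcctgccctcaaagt
Oas3: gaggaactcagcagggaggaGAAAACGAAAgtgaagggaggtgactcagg
Rsad2: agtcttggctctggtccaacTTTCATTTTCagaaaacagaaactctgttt
The matches begin 222, 36, 75 and 120 bases before the start. The genes, chosen by the match, rose by 1.34, 0.83, 0.78 and 0.52. The list as a whole held the letters no less often than its called members.

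Surface receptors changed in both directions. The list of 27 lectins and other DC receptors held 12 higher (44.4%) and 7 lower (25.9%) genes, against 6.43% and 9.23% of all genes. The counts were the same without replicate 1 of the Zbtb46- CDPs. Sirpa, the signal-regulatory protein that marks cDC2, was at 10.94, 10.89 and 10.85 in Zbtb46- CDPs, 10.65, 10.18 and 10.16 in Zbtb46+ CDPs and 7.78, 7.80 and 7.68 in Pre-CD8 DCs. The progenitor groups lay less than 1 apart and the Pre-CD8 DC arrays more than 2 below both, a fall of 3.14 (SE 0.13, adjusted p = 5.61e-07). Clec7a (dectin-1), a receptor for fungal glucans, fell by at least 2.91 and Clec10a, a galactose-binding lectin of cDC2, by at least 1.90. In the other direction, the lectin genes Clec4b1 and Cd209a rose by at least 3.89 and by 3.12, the former a member of a cluster of close copies, and Slamf8 by at least 3.54. The cDC2 list was mixed, with 9 of 22 genes higher (40.9%) and 6 lower (27.3%). Without replicate 1 of the Zbtb46- CDPs 8 were higher and 6 lower. Among its higher members were Cd209a, with the rise just given, and the receptor gene Notch2 (1.32). Cd7 was also higher, and highest in the Zbtb46+ CDPs (means 8.21, 11.16 and 10.002 along the 3 populations). Of the cDC2 markers, Sirpa and Clec10a thus fell while Cd209a and Irf4 rose.

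Chemokine receptors changed in 6 of 13 measured genes. The 4 higher made up 30.8% and the 2 lower 15.4% of the list, against 6.43% and 9.23% of all genes. Cxcr3, a receptor for interferon-induced chemokines, was at 6.96, 7.17 and 7.03 in Zbtb46- CDPs and 10.53, 10.81 and 10.56 in Pre-CD8 DCs. The groups were more than 3 apart, and it rose by at least 3.58 (SE 0.13, adjusted p = 3.37e-07). Ccr9, a gut-homing receptor, rose by at least 1.84, Ccr2, the receptor used to leave the marrow, by 1.34, and Xcr1 as given above. Cx3cr1, the fractalkine receptor of monocytes and DC progenitors, fell by 1.39 and Cxcr4, which retains cells in the marrow, by 0.71. The counts of 4 higher and 2 lower held under each single omission of an array.

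Growth factor receptors also parted ways. Flt3, the receptor of the main DC growth factor, was at 11.25, 11.19 and 11.13 in Zbtb46- CDPs, 10.97, 10.64 and 10.47 in Zbtb46+ CDPs and 11.30, 11.20 and 11.36 in Pre-CD8 DCs. Its end groups overlapped, and the difference of 0.10 (SE 0.12, adjusted p = 0.758) was not called. Kit, the stem cell factor receptor, was at 10.60, 10.47 and 10.34 in Zbtb46- CDPs and 11.56, 11.61 and 11.59 in Pre-CD8 DCs, a rise of 1.12 (SE 0.13, adjusted p = 0.000387) with all Pre-CD8 DC arrays above all CDP arrays. Ifngr1, an interferon gamma receptor chain, rose by 1.28 and Csf2ra, of the GM-CSF receptor, by 1.09, while the cytokine receptor chain gene Il6st (gp130) fell by 0.998. Of 22 measured receptors 5 were higher (22.7%) and 7 lower (31.8%), against 6.43% and 9.23% of all genes. The higher count was 3 without replicate 3 of the Pre-CD8 DCs. Of 23 progenitor surface and signalling genes 13 were lower (56.5%) and 4 higher (17.4%), or 12 and 3 without replicate 1 of the Zbtb46- CDPs. The falls included Cd34, from 11.72, 11.64 and 11.61 to 8.78, 9.02 and 9.18 (by 2.66), and Adgrg1, an adhesion receptor of stem cells (by at least 3.01).

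Primary granule genes fell: 11 of 14 were lower (78.6%) and 0 higher, against 9.23% and 6.43% of all genes. The median was -2.95, and 10 were lower with a median of -2.90 without replicate 1 of the Zbtb46- CDPs. The serine protease gene Ctsg (cathepsin G) was at 11.70, 11.72 and 11.83 in Zbtb46- CDPs, 9.11, 9.18 and 9.18 in Zbtb46+ CDPs and 5.92, 6.13 and 6.27 in Pre-CD8 DCs. Arrays within each population agreed within 0.4, and the fall was at least 5.64 (SE 0.09, adjusted p = 4.90e-09). Prtn3 (proteinase 3) fell by 5.31. Elane, neutrophil elastase, fell by at least 4.54, and its SE was 0.64. Its Zbtb46+ CDP arrays, which enter the estimate of spread, were at 11.65, 8.87 and 8.68.

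Monocyte and macrophage genes went both ways, 9 of 24 higher (37.5%) and 7 lower (29.2%), against 6.43% and 9.23% of all genes. Without replicate 1 of the Zbtb46- CDPs 9 were higher and 6 lower. Lgals3 (galectin-3) rose by 2.75, from 8.67, 8.27 and 8.42 to 11.37, 11.16 and 11.09, and Irf5, a factor of inflammatory cytokine genes, by 1.64. Fcgr3, a low-affinity antibody receptor, fell by at least 1.79. Of 24 plasmacytoid DC genes 5 were higher (20.8%) and 9 lower (37.5%). Without any 1 array of either compared population except replicate 1 of the Zbtb46- CDPs, 3 were higher. Dntt, the template-independent DNA polymerase of lymphoid progenitors, was at 9.24, 7.18 and 7.26 in Zbtb46- CDPs and 5.23, 5.62 and 5.71 in Pre-CD8 DCs. Replicate 1 was far above its companions, and the fall of 2.37, to signals below the table median, was 1.70 without it. Cd22, an inhibitory lectin of B cells, was the single higher member of the B lineage list and rose by 2.93, from 7.99, 7.65 and 7.46 to 10.54, 10.84 and 10.51.

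**Figure D3:**
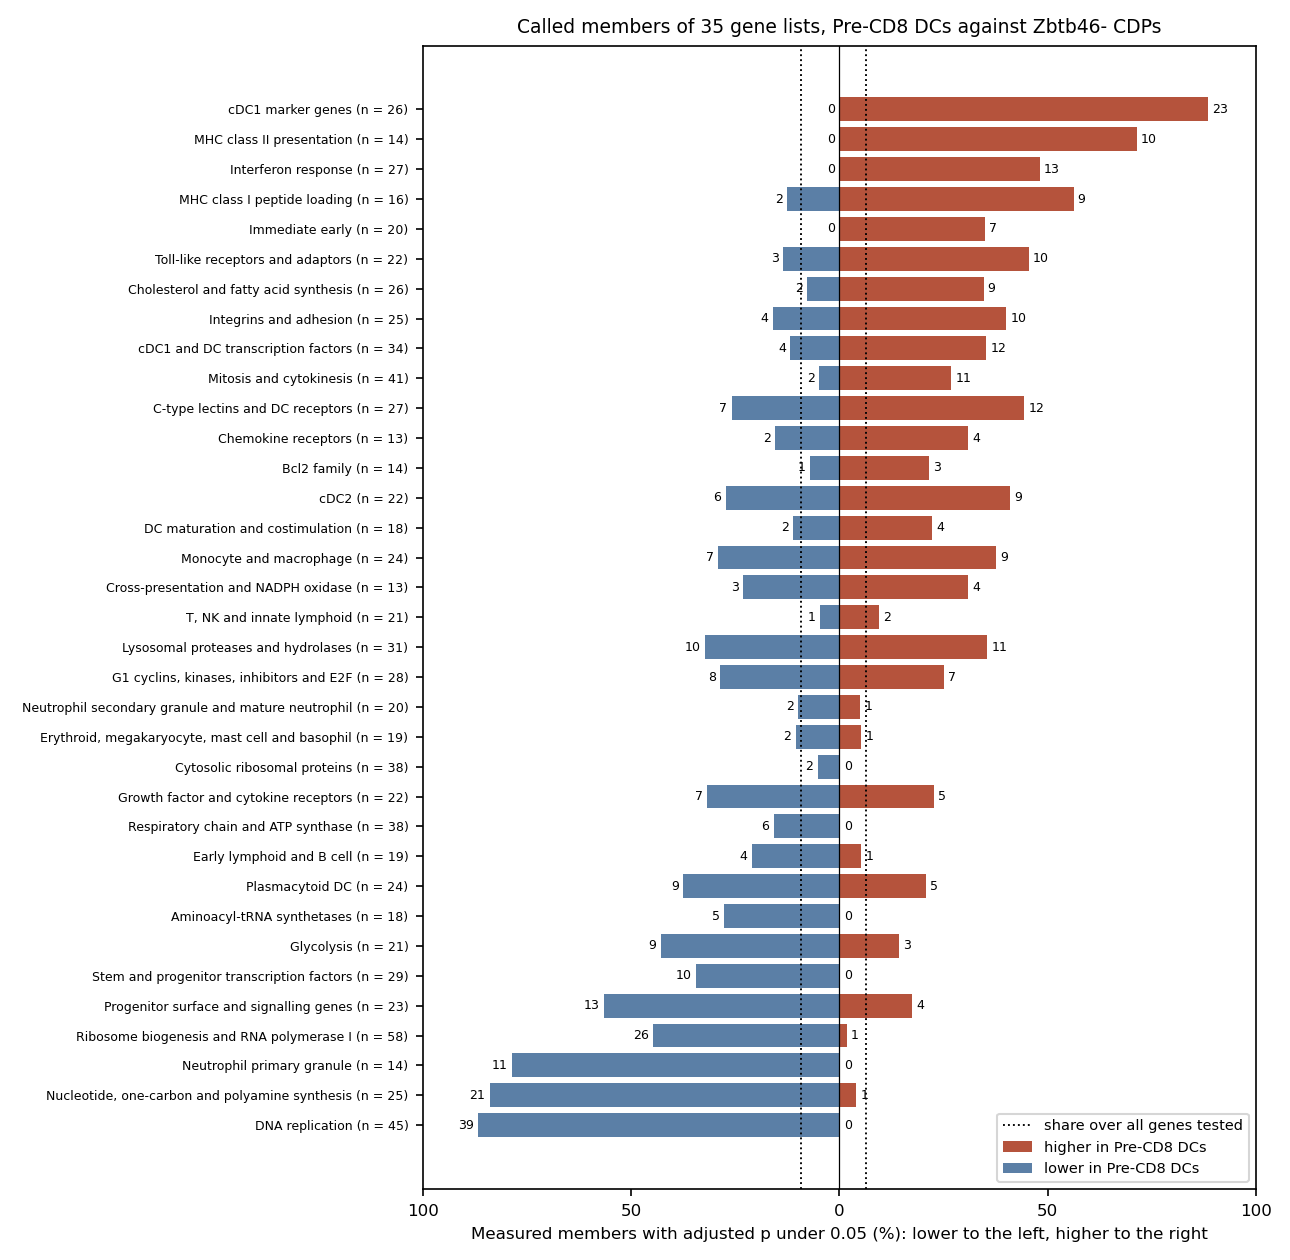
Share of the measured members of each of 35 gene lists that was higher (right, red) or lower (left, blue) in Pre-CD8 DCs at an adjusted p under 0.05, with the number of genes at each bar and dotted lines at the shares over all genes (6.43% higher, 9.23% lower). The cDC1 marker, MHC class II and interferon lists have 0 lower members, and the DNA replication, primary granule and stem factor lists 0 higher ones.

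Cell cycle genes split by phase. Of 45 DNA replication genes 39 were lower and 0 higher, against 9.23% lower over all genes, with a median of -0.77; without replicate 1 of the Zbtb46- CDPs 35 were lower and the median was -0.71. Of 41 mitosis and cytokinesis genes 11 were higher (26.8%) and 2 lower (4.88%), against 6.43% and 9.23% of all genes. The median of the mitosis list was 0.24, and 13 were higher and 1 lower without that array. The mean log2 signal of the replication list was 10.21, 10.06 and 10.11 in Zbtb46- CDPs, 9.79, 9.83 and 9.88 in Zbtb46+ CDPs and 9.35, 9.36 and 9.30 in Pre-CD8 DCs. All 3 populations were separate on this measure, the Pre-CD8 DCs lowest.

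Chaf1b, a chaperone that places histones on new DNA, fell from 10.09, 10.09 and 9.96 to 8.62, 8.73 and 8.47, by 1.44 (SE 0.09, adjusted p = 7.68e-06). The helicase subunit genes Mcm2 and Mcm6 fell by 1.41 and 1.39, and Orc1, of the origin recognition complex, by at least 1.34. Among mitosis genes, the spindle protein gene Nusap1 was at 10.78, 10.56 and 10.70 in Zbtb46- CDPs and 11.26, 11.58 and 11.36 in Pre-CD8 DCs, a rise of 0.72 (SE 0.15, adjusted p = 0.0091). Ube2c, a ubiquitin-conjugating enzyme of the anaphase complex, rose by 0.61 and Mki67, the proliferation marker, by 0.52. Of the mitosis genes 1 was lower without any single array of the 2 populations. The count of higher mitosis genes was 7 without replicate 2 or 3 of the Zbtb46- CDPs or replicate 1 or 3 of the Pre-CD8 DCs.

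Replication genes are known targets of E2F factors, and 2 forms of the E2F motif, TTTGGCGC and TTTCCCGC, were searched in the windows on both strands. At least 1 was present in 12 of the 37 replication genes with a window (32.4%), all 12 of them among the 33 called ones (36.4%), in 0 of 34 mitosis genes and in 1.8% of all 27025 genes. The 5 called genes with the largest falls among those with a match are shown with 26 bases to each side and the match in capitals, GCGCCAAA and GCGGGAAA being the same motifs on the other strand. Mcm6 lies at chr1:128359782-128359841, Mcm7 at chr5:138172015-138172074 and Pola1 at chrX:93632260-93632319 on the minus strand, Mcm5 at chr8:75109334-75109393 and Cdc6 at chr11:98907987-98908046 on the plus strand.
Mcm6: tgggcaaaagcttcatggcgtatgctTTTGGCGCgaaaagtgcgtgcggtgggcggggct
Mcm7: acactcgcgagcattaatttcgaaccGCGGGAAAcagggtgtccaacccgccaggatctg
Pola1: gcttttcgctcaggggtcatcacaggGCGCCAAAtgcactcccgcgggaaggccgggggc
Mcm5: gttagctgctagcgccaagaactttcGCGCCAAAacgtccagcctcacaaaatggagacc
Cdc6: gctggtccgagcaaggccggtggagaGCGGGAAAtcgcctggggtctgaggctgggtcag
The window of Mcm6 holds a further match outside the stretch shown. The matches shown begin between 110 and 165 bases before the start. Mcm6 fell by 1.39, and the genes chosen by the match, Mcm7, another helicase subunit, Pola1, the catalytic subunit of DNA polymerase alpha, Mcm5 and the helicase loader gene Cdc6, fell by 1.28, 1.23, 0.998 and 0.90.

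At the entry to the cycle, Cdk6, a cyclin D-dependent kinase, was at 12.01, 11.81 and 11.74 in Zbtb46- CDPs, 10.31, 10.20 and 10.21 in Zbtb46+ CDPs and 9.05, 8.93 and 8.93 in Pre-CD8 DCs and fell by 2.88 (SE 0.09, adjusted p = 1.04e-07). Its cyclin gene Ccnd2 overlapped between the CDP groups, at 11.88, 11.58 and 11.56 and 11.93, 11.53 and 11.55, and was lower in Pre-CD8 DCs at 9.93, 10.02 and 9.86, a fall of 1.73 from the Zbtb46- CDPs. E2f1, an activating E2F factor, fell by 0.88, while the inhibitors of these kinases rose, Cdkn2d by 1.06 and Cdkn2c by 0.81. Of the 28 genes of this list 7 were higher (25%) and 8 lower (28.6%), against 6.43% and 9.23% of all genes. The lower count was 5 without replicate 1 of the Zbtb46- CDPs, and 11 were higher without replicate 1 of the Zbtb46+ CDPs.

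Biosynthetic genes of growth were lower. Of 25 genes of nucleotide, one-carbon and polyamine synthesis 21 were lower (84%) and 1 higher (4%), against 9.23% and 6.43% of all genes. The median was -0.76, and 20 were lower and 1 higher without replicate 1 of the Zbtb46- CDPs. Phgdh, the first enzyme of serine synthesis, was at 10.33, 9.49 and 9.82 in Zbtb46- CDPs and 7.99, 8.04 and 7.86 in Pre-CD8 DCs and fell by 1.92 (SE 0.18; 1.69 without replicate 1). The serine hydroxymethyltransferase genes Shmt1 and Shmt2 fell by 1.56 and 1.54, and Ppat, the committed step of purine synthesis, by 1.45. The single riser was Mthfd2, a mitochondrial folate enzyme (0.43).

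Of 58 ribosome biogenesis and RNA polymerase I genes 26 were lower (44.8%) and 1 higher (1.72%), against 9.23% and 6.43% of all genes. The median of these genes was -0.45, and 19 were lower without replicate 1 of the Zbtb46- CDPs. Their mean log2 signal was 9.77, 9.60 and 9.72 in Zbtb46- CDPs, 8.93, 8.82 and 8.92 in Zbtb46+ CDPs and 9.24, 9.23 and 9.25 in Pre-CD8 DCs, so the lowest signals were in the middle population. Gnl3 (nucleostemin), a nucleolar GTPase, had signals of 9.47, 9.60 and 9.96, 7.84, 8.09 and 8.29 and 8.61, 8.73 and 8.67 in the same order, and fell by 1.01 from end to end (SE 0.14, adjusted p = 0.00123). Nolc1, a nucleolar phosphoprotein, fell by 1.02. The plot of the cell cycle and biosynthesis lists by array shows these courses side by side; the comparisons with the Zbtb46+ CDPs share arrays with the one described here.

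**Figure D4:**
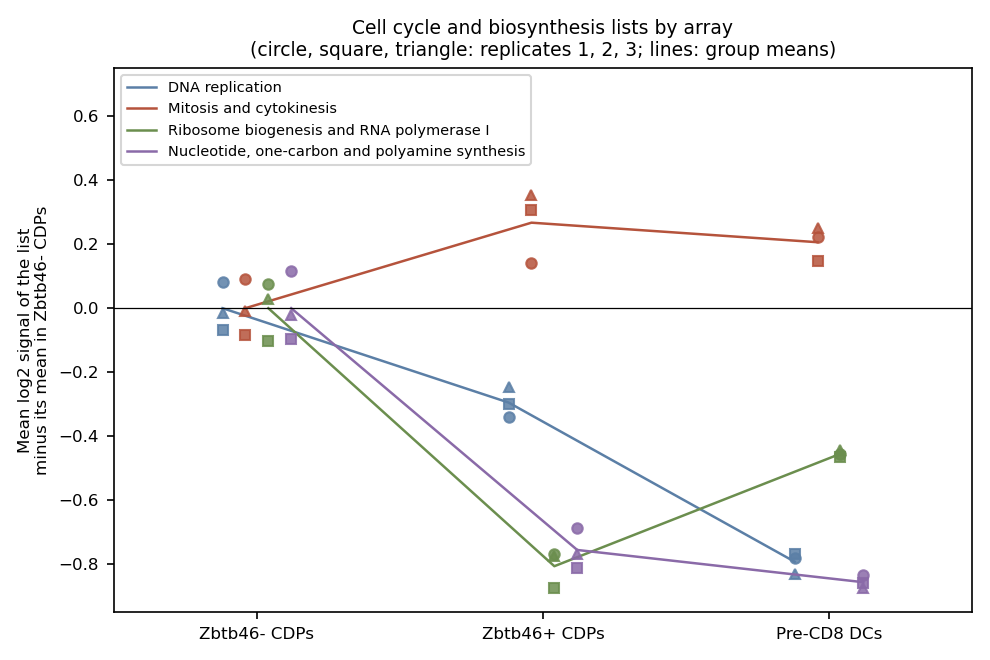
Mean log2 signal of 4 gene lists on each array, minus the mean of that list in Zbtb46- CDPs; marker shapes give replicates 1 to 3 and lines join the group means. Replication and nucleotide synthesis end about 0.8 lower in Pre-CD8 DCs, mitosis stays above its starting value, and ribosome biogenesis is lowest in Zbtb46+ CDPs.

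Of 26 genes of cholesterol and fatty acid synthesis 9 were higher (34.6%) and 2 lower (7.69%), against 6.43% and 9.23% of all genes. The lower share was thus near that of all genes. The lower count was 1 without any 1 of the 6 arrays compared. The higher count was 6 without replicate 3 of the Zbtb46- CDPs or of the Pre-CD8 DCs. Srebf2, the transcription factor that drives the sterol pathway, was at 9.70, 9.42 and 9.36 in Zbtb46- CDPs and 11.004, 10.78 and 10.93 in Pre-CD8 DCs and rose by 1.41 (SE 0.19, adjusted p = 0.000919). Its pathway enzymes Fdft1 (squalene synthase) and Msmo1, a sterol oxidase, rose by 0.88 and 0.81, while Elovl6, which lengthens fatty acids, fell by 0.60.

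Lysosomal genes moved in both directions, with 11 of 31 genes higher (35.5%) and 10 lower (32.3%), against 6.43% and 9.23% of all genes. Without replicate 1 of the Zbtb46- CDPs 10 were higher and 6 lower. The lower count was also 6 without replicate 1 of the Pre-CD8 DCs. Ctss (cathepsin S), the protease that trims the invariant chain, was at 10.88, 10.86 and 10.96 in Zbtb46- CDPs and 11.94, 12.13 and 11.87 in Pre-CD8 DCs and rose by 1.08 (SE 0.18). Ctsd (cathepsin D), an aspartic protease of the same organelle, went from 9.30, 8.80 and 8.95 to 6.73, 6.77 and 6.80 and fell by at least 2.25 (SE 0.18, adjusted p = 3.26e-05). Besides Plbd1 and Naaa, the thioesterase gene Ppt1 rose by 1.67, and the protease genes Ctsa and Tpp1 each fell by 1.09. The E-box CACGTG, read on both strands, was in the windows of 10 of 25 members (40%), against 8.09% of all genes, among them 9 of the 19 called ones. Shares above that of all genes were not particular to this list. They were 23.1% for class I peptide loading, 21.2% for ribosome biogenesis, 19% for cholesterol and fatty acid synthesis and 18.9% for replication. For mitosis the share was 8.82%, and for the class II and interferon lists 0%.

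Adhesion genes were higher more often than lower, in 10 (40%) and 4 (16%) of 25 measured, against 6.43% and 9.23% of all genes. Without replicate 1 of the Zbtb46- CDPs 9 were higher and 3 lower. Itgb2, the beta-2 integrin chain, was at 8.48, 7.97 and 7.87 in Zbtb46- CDPs and 10.98, 10.83 and 11.003 in Pre-CD8 DCs and rose by 2.83 (SE 0.22, adjusted p = 2.60e-05). The adhesion molecule gene L1cam rose by 2.93 and Itgb7, the beta-7 chain of gut-homing integrins, by 2.02, while Pecam1 (CD31) fell by 1.35. Of 18 genes of DC maturation and costimulation 4 were higher (22.2%) and 2 lower (11.1%), against 6.43% and 9.23% of all genes, the lower share near that of all genes. Cd86, the costimulatory ligand of CD28, was at 6.21, 5.79 and 5.62 in Zbtb46- CDPs and 9.04, 9.24 and 9.21 in Pre-CD8 DCs, a rise of at least 3.29. Both lower genes, Il15 (-0.73) and Cd274 (-0.43, the checkpoint ligand PD-L1), lost their calls without any 1 Zbtb46- CDP array or without replicate 2 or 3 of the Pre-CD8 DCs (adjusted p up to 0.158 and 0.1), and Il15 also without replicate 1 of the Pre-CD8 DCs or replicate 2 of the Zbtb46+ CDPs.

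In the Bcl2 family of survival and death genes, 3 of 14 were higher (21.4%) and 1 lower (7.14%), against 6.43% and 9.23% of all genes. The lower share was near that of all genes, so it is no trait of the family. The lower count was 3 without replicate 1, and 2 without replicate 2, of the Zbtb46+ CDPs. Bcl2 itself was at 11.63, 11.53 and 11.45 in Zbtb46- CDPs, 10.60, 10.63 and 10.63 in Zbtb46+ CDPs and 9.10, 9.38 and 9.06 in Pre-CD8 DCs. The populations were separate and it fell by 2.36 (SE 0.09, adjusted p = 5.97e-07). Mcl1, another survival member, rose by 0.92 (SE 0.08), from 9.26, 9.22 and 9.27 to 10.14, 10.26 and 10.10, and Bmf, a death-promoting member, by 0.65.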

How the data were processed

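RNA of 3 sorted samples per population was amplified with a kit for very small inputs, per the labels' protocols, and hybridised to 9 arrays. The authors deposited 1 RMA signal intensity per probe set, made in Affymetrix Expression Console per the submitters' processing notes; versions, background settings and the array's genome build are not given in the sources used here. The deposited intensities were linear (7.45 to 20455.6), so log2 was taken, and no further scaling or filter was applied. Of 28853 probe sets, 21789 had 1 gene symbol, 1621 had several and 5443 had none in the annotation used; for the 999 genes with several probe sets the one with the highest mean over the 9 arrays was kept, which gave 19938 genes. No 2 arrays were identical.

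Models of group means were fitted to all 9 arrays with limma 3.58.1 (lmFit, eBayes) in R 4.3.3, so the Zbtb46+ CDPs lend their spread, and p-values were adjusted by Benjamini-Hochberg over all genes. At an unadjusted p under 0.05, 4852 genes differed. The steps were also run on simulated data with independent noise on each array. Those data lack the shared deviations and the outlying array described here, so the run cannot show how the fit handles them. Python 3.11.15, pandas 2.3.3 and matplotlib 3.10.9 made tables and figures. Same-numbered arrays of the 2 compared populations did not deviate together, so no block was used. Those of the Zbtb46- and Zbtb46+ CDPs, which all enter the fit, did, with residual correlations of 0.51, 0.42 and 0.36. A fit with the block is given below as an alternative.

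The comparison, the 35 gene lists (875 of 950 memberships measured) and the tests were chosen with earlier results of these data known, so list counts are descriptions. Named genes are the 15 largest rises and falls among called genes without overlap between arrays (without pseudogenes, antigen receptor segments, small RNAs and predicted or clone-named loci), up to 4 called members per list and direction, and a set of lineage genes whatever their values, 208 in all. Genes named outside this rule are said to be so. Alternatives were another choice of probe set, 2 filters on dim genes, 2 further scalings, log2(signal + 50), array weights, the 6 compared arrays fitted alone, robust moderation along an intensity trend, a replicate block, other thresholds, each array left out, and replicate 1 of both CDP groups left out.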

Additional observations from a re-analysis of the deposited data

How the results depend on the processing

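The count of 3123 called genes stayed within 1.5 times under all settings tried but 3. Estimated array weights gave 6955 calls (3225 higher, 3730 lower), an adjusted p under 0.01 gave 1877 (840 and 1037), and a required difference of at least 1 gave 842 (423 and 419); the last 2 are stricter by construction, and the cause of the first was not tested. With each of the 9 arrays left out in turn, calls ran from 2250 to 4300, higher genes from 946 to 1756 and lower ones from 1263 to 2544. The replicate number as a block gave 3467 calls (1407 higher, 2060 lower). Residuals of same-numbered Zbtb46- CDP and Pre-CD8 DC arrays correlated by only -0.01, -0.03 and 0.03. These arrays thus showed no shared deviation by number, which cannot tell whether same-numbered samples had a common origin. Between the CDP populations, whose difference was not tested, residuals of same-numbered arrays correlated by 0.51, 0.42 and 0.36. Between Zbtb46+ CDPs and Pre-CD8 DCs they correlated by 0.11, 0.07 and 0.17. The 6 compared arrays fitted alone gave 3936 calls. The median difference of all genes was 0.01 with the deposited values and 0.05 under median scaling. Of 208 named genes only the uncalled Tcf3 changed sign, to 0.012 with array weights and to 0.063 without replicate 1 of both CDP groups; over single omissions it ran from -0.218 to 0.063. Of the 202 called, 37 lost the call without at least 1 of the arrays and 165 kept it throughout. Not knowing the background level limits every value near or below 6.82.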

Other observations

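Immediate early genes, which respond quickly to stimuli and to cell handling, were higher in 7 of 20 measured members (35%) and lower in 0. The shares over all genes were 6.43% and 9.23%. Without replicate 1 of both CDP groups 10 members were higher and 3 lower. Ier5 was at 7.56, 7.12 and 7.21 in Zbtb46- CDPs and 9.22, 9.41 and 9.16 in Pre-CD8 DCs and rose by 1.96 (SE 0.16, adjusted p = 4.13e-05 in the limma fit), and Klf6, a zinc finger factor, rose by 1.33. Fos, looked at after its values were seen, was at 10.16, 9.39 and 9.34 and 9.69, 9.60 and 9.61 in the same order and was not called (adjusted p = 0.998); its highest array was replicate 1 of the Zbtb46- CDPs. The count of higher members was 4 without replicate 2 or 3 of the Zbtb46- CDPs or replicate 1 or 3 of the Pre-CD8 DCs.

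In energy metabolism, 9 of 21 glycolysis genes were lower (42.9%) and 3 higher (14.3%), against 9.23% and 6.43% of all genes. Without replicate 1 of the Zbtb46- CDPs 8 were lower and 2 higher. Hk3, the hexokinase of myeloid cells, was at 9.45, 9.57 and 9.49 in Zbtb46- CDPs and 7.59, 7.55 and 7.30 in Pre-CD8 DCs and fell by 2.02 (SE 0.09, adjusted p = 1.15e-06 in the limma fit). Aldoa (aldolase A) fell by 0.94, while Pfkp, the platelet form of phosphofructokinase, rose by 1.01 and Aldoc (aldolase C) by at least 0.89. Of 38 respiratory chain and ATP synthase genes 6 were lower and 0 higher, a share of lower genes of 15.8% against 9.23% over all genes, and the count was 3 without replicate 1 or 3 of the Zbtb46- CDPs or replicate 3 of the Pre-CD8 DCs, and 10 without replicate 1 of the Zbtb46+ CDPs. Of 38 cytosolic ribosomal protein genes 2 were lower (5.26%), Rpl34 and Rps2, a share below the 9.23% of all genes. Both calls were lost without any 1 array of the compared populations, and 4 members were lower without replicate 1 of the Zbtb46+ CDPs.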
